A study of Mus musculus with 3 samples.

Results

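The genes described here are 7 genes known from type 1 alveolar cells: Ager, Hopx, Cav1, Emp2, Pdpn, Igfbp2 and Sema3e. They were taken by name, and every probe set whose only gene symbol in the platform's probe table was one of the 7 was used. This gave 8 of 12422 probe sets, 2 of them for Cav1 and 1 for each other gene, and 7 of 8251 genes. Total RNA was measured on Affymetrix mouse expression arrays in 3 lung samples: a B16-bearing lung, an LLC-bearing lung and a normal lung, called the B16 lung, the LLC lung and the control lung. B16 is a melanoma line of the mouse and LLC is Lewis lung carcinoma, a tumour line from mouse lung; per the series description the cells were injected under the skin of the back, so the lungs represent an organ before metastasis. Each group is 1 array, so there is no replicate, no test and no error, and a difference speaks for these arrays, not for the conditions. The sources used here give no strain, age, time after injection or number of animals.

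Type 1 cells are the thin, flat cells that line most of the alveolar surface and form, with the capillary endothelium beneath them, the barrier across which gas is exchanged. Type 2 cells, which make surfactant, can renew them after injury. Several of the 7 genes are not type 1 genes alone: endothelium expresses Cav1, lymphatic endothelium and mesothelium express Pdpn, and heart muscle expresses Hopx.

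Values are scaled signals in arbitrary units, and differences are on the log2 scale. Signals under 23.6, the 40th percentile of all values, were set to that floor. All 8 probe sets lay above the floor on all 3 arrays; the floor is a percentile and no detection call. As a yardstick, the robust SD of the log2 difference between the B16 and LLC lungs was 0.429 over 7983 measured probe sets, and 0.194 for the 233 with a mean signal of 1000 or more, 0.276 from 500 to 1000 and 0.397 from 100 to 200. This spread holds real differences between the lungs as well as noise. As a sign of RNA integrity, the 3' over 5' signal ratio of beta-actin was 1.56 in the B16 lung and 1.47 in the LLC lung, against 1.44 in the control lung, and that of Gapdh was 1.20 and 1.0 against 0.957.

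Most of these genes were at nearly the same level in all 3 lungs, and Pdpn and Sema3e were lower in the B16 lung. Over the 7 genes the log2 differences had a median of 0.01 in the B16 lung against control, −0.10 in the LLC lung against control and 0.06 between the B16 and LLC lungs. Over all measured genes the same medians were −0.01, 0.00 and −0.02. In the B16 lung 1 of the 8 probe sets, that of Sema3e, was at least 2-fold lower than in the control lung and 0 were at least 2-fold higher. The background for that comparison was 4.97% of all measured probe sets lower and 3.42% higher. In the LLC lung 0 of 8 differed from control by 2-fold, against a background of 2.93% lower and 4.18% higher. Between the B16 and LLC lungs, Sema3e was again the 1 probe set at least 2-fold lower, against 5.19% lower and 3.49% higher among all probe sets. A count of 1 in 8 is a statement about that gene and not about the group. In whole lung RNA, fewer cells of a type and less RNA per cell cannot be told apart.

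**Figure D1:**
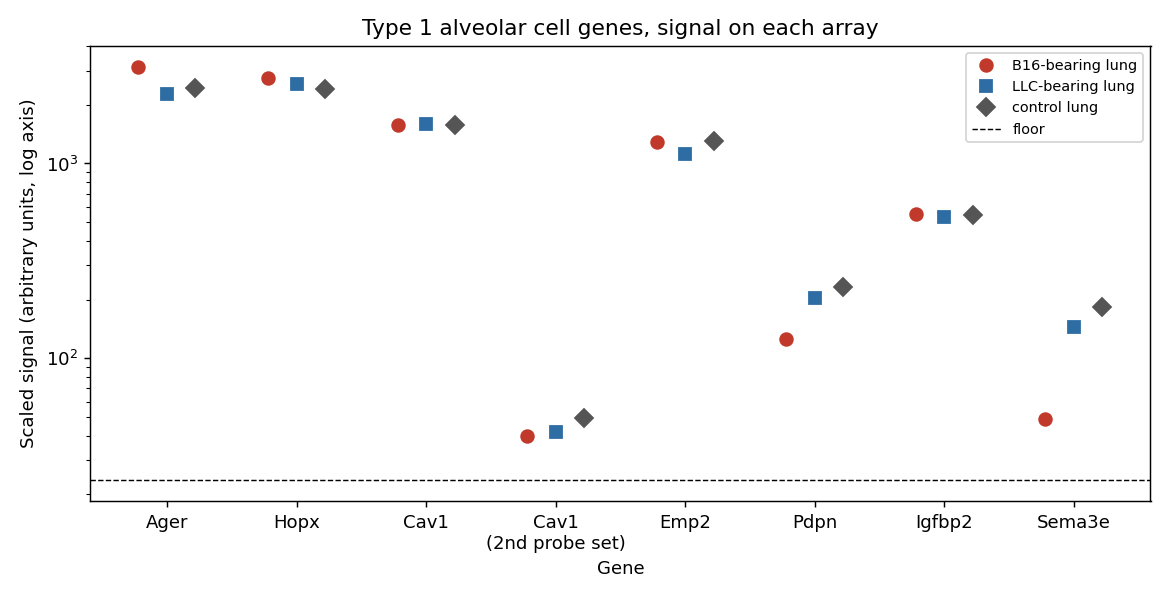
Scaled signal (arbitrary units, log axis) of each probe set of the 7 genes in the B16, LLC and control lung, 1 point per array; the dashed line is the floor. Pdpn and Sema3e have their lowest point in the B16 lung (126 and 49.0), while the points of Cav1 and Igfbp2 nearly coincide.

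Ager encodes RAGE, a pattern recognition receptor of the immunoglobulin superfamily that is abundant on the basal side of type 1 cells. Its signal was 3141 in the B16 lung and 2270 in the LLC lung, against 2432 in the control lung. The B16 lung was thus the highest and the other lungs lay closer together. The differences from control were 0.37 (1.29-fold higher) in the B16 lung and −0.10 in the LLC lung, and the B16 lung exceeded the LLC lung by 0.47, which is larger than the spread of 0.194 among probe sets of this brightness. Probe sets of this brightness were also shifted as a whole, by a median of 0.11 in the B16 and 0.10 in the LLC lung against control.

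Of 11 listed ligands and partners of RAGE, 9 had a probe set and all 9 were measured. Against control, 6 were higher and 3 lower in the B16 lung (median 0.10), and 7 were higher and 2 lower in the LLC lung (median 0.14). At least 2-fold higher were 2 of 9 in the B16 lung, against 3.23% of all measured genes, and 3 of 9 in the LLC lung, against 3.95%. These were the calprotectin subunits S100a8 and S100a9 in both lungs, for which the study is known, so this is no independent evidence of their direction. S100a8 read 1224 in the B16 lung and 1810 in the LLC lung, against 485 in the control lung. S100a9 read 866 and 1684 against 305. In the LLC lung S100a4, a calcium-binding protein of motile cells, was the third, with 42.5 in the B16 lung and 278 in the LLC lung, against 70.1 in the control lung. Ligand genes with other readings were App, the amyloid precursor, with 2962 and 2704 against 2505, and S100a6, with 1713 and 1899 against 1727. Diaph1, a formin that binds the receptor's cytoplasmic tail, read 332 and 316 against 305. The receptor gene itself thus differed from control by far less than S100a8 and S100a9 did in either lung.

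Cav1 encodes caveolin 1, the scaffold of caveolae, the flask-shaped membrane pits that are dense in type 1 cells and endothelium. On its brighter probe set the signal was 1578 in the B16 lung and 1591 in the LLC lung, against 1568 in the control lung. These readings were nearly equal, with differences of 0.01 and 0.02. The second probe set read 40.1 and 42.0 against 49.5, differences of −0.30 and −0.24, both within the robust SD of 0.593 and 0.537 for probe sets of mean signal under 50 in those comparisons.

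The coat proteins that work with caveolin 1 were mixed. Cavin1, needed to form caveolae, read 517 and 486 against 481 in the B16, LLC and control lung. Cavin2, which helps shape them, read 664 and 882 against 1052, differences of −0.66 and −0.26, on a probe set that carries a design suffix. Cavin3 read 151 and 149 against 214 on a probe set of shared design. The muscle caveolin Cav3 read 34.4 and 94.2 against 32.5, so it was 2.90-fold higher in the LLC lung, but its other probe set stayed under the floor on every array. Of these 4 genes, Cav3 was the 1 at least 2-fold higher in the LLC lung, against 3.95% of all measured genes. In the B16 lung 0 were past 2-fold, against 3.23% higher and 4.73% lower.

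Emp2 encodes a tetraspan membrane protein of the PMP22 family that is abundant in lung and takes part in integrin trafficking. Its signal was 1295 in the B16 lung and 1117 in the LLC lung, against 1303 in the control lung. The LLC lung was the lowest, with a difference of −0.22, and the B16 lung was level with control (−0.01). The robust SD of the LLC lung against control was 0.153 at this brightness, around a median of 0.10. The relatives Emp1 (1150 and 1002 against 986) and Pmp22 (1091 and 914 against 1122) also stayed within 2-fold. Emp3 read 359 and 550 against 488 on its brighter probe set and 417 and 427 against 370 on the other, so its probe sets differ in direction in the B16 lung.

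**Figure D2:**
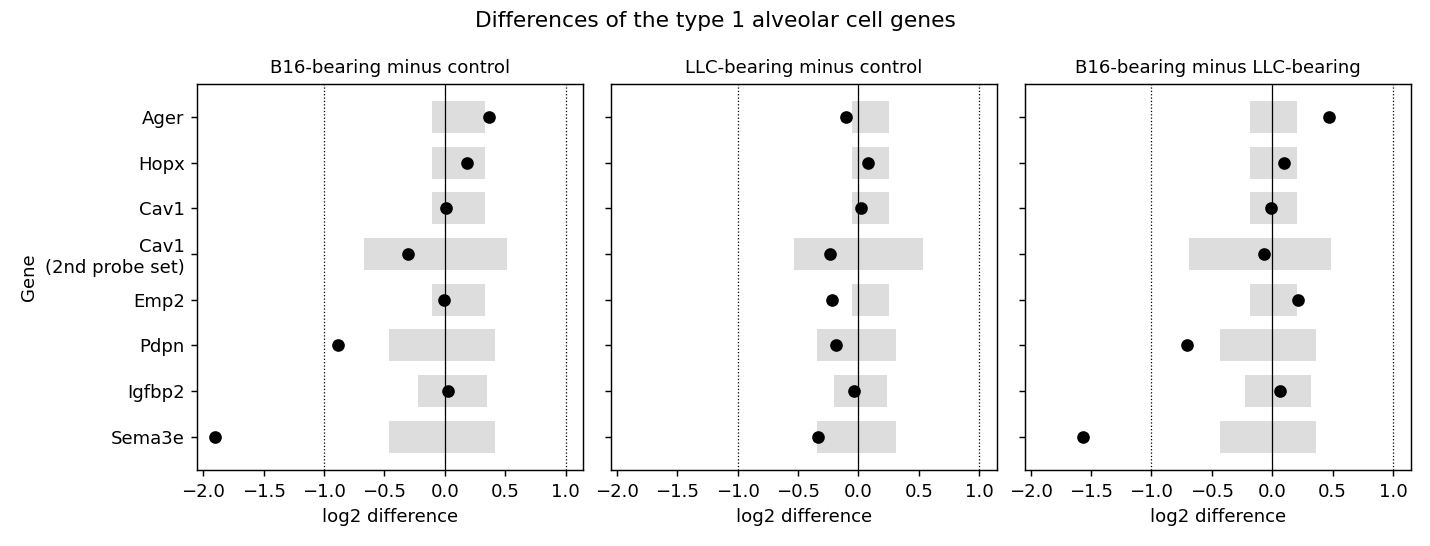
Log2 difference of each probe set in the 3 comparisons (black points). The grey bar spans 1 robust SD either side of the median of all probe sets in the same brightness band, and dotted lines mark 2-fold. Sema3e (−1.90) and Pdpn (−0.89) stand left of their bars in the B16 lung against control, and Ager (0.37) stands right of its bar. In the LLC lung against control, Ager (−0.10) and Emp2 (−0.22) stand left of theirs. Between the B16 and LLC lungs, Sema3e and Pdpn stand left of their bars, and Ager and Emp2 right.

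Pdpn encodes podoplanin, a mucin-like surface glycoprotein of the apical type 1 cell membrane, first named T1-alpha there. Its signal was 126 in the B16 lung and 205 in the LLC lung, against 233 in the control lung. The B16 lung was the lowest, 1.85-fold lower than control (−0.89) and 1.63-fold lower than the LLC lung (−0.70). The LLC lung differed from control by −0.19, within the spread of 0.33 for that comparison at signals of 100 to 200; for the B16 lung against control that spread was 0.438. Pdpn thus just missed 2-fold.

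Ezrin and moesin tie the podoplanin tail to actin. Ezr read 384 and 366 against 325, and Msn 1007 and 1204 against 1312, in the B16 and LLC lungs against control. The tetraspanin Cd9, which binds podoplanin, read 877 and 1020 against 779. Cd44, a hyaluronan receptor that also binds it, was below the floor in both tumour-bearing lungs, against 36.8 in the control lung, and Lgals8 was below it on all 3 arrays. Ezr, Msn and Cd9 were within 2-fold in both tumour-bearing lungs. For Cd44 there is only a bound, at least 1.56-fold lower in both, on its brightest probe set. The other Cd44 probe sets were below the floor on all 3 arrays.

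Lymphatic endothelium and mesothelium also express Pdpn, and their marker lists were read beside it. Of the lymphatic endothelial list, 3 of 4 genes with a probe set were above the floor and their signals summed to 515 in the B16 lung and 403 in the LLC lung, against 417 in control. Of these, 2 were higher and 1 lower than control in the B16 lung, and 1 was higher and 2 lower in the LLC lung. Lyve1, a hyaluronan receptor of lymphatic vessels, read 293 and 197 against 213, and Flt4, a VEGF receptor of these vessels, 142 and 164 against 157 on its brighter probe set and 48.5 and 47.6 against 77.7 on the other. The defining factor Prox1 was below the floor throughout. Of the mesothelial list all 6 were above the floor, and 5 of 6 were higher in the B16 lung and 1 in the LLC lung, with sums of 1331 and 1074 against 1152. Upk3b, a uroplakin of mesothelium, read 305 and 271 against 248. Krt19, a keratin that is also a type 1 marker, read 335 and 343 against 354 on its brighter probe set. That is the order of Pdpn, but with differences of only −0.08 and −0.04. Its other probe set read 48.5 in the B16 lung and was below the floor in the LLC and control lungs. Msln, mesothelin, was the 1 gene past 2-fold, against 3.23% of all measured genes higher, with 51.1 in the B16 lung and 23.9, just above the floor, in the control lung; it was singled out after its values were seen. The part of these cells in the Pdpn reading was not tested.

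Sema3e encodes a secreted class 3 semaphorin, a guidance cue that acts through the receptor plexin D1 and repels endothelial cells. Its signal was 49.0 in the B16 lung and 145 in the LLC lung, against 183 in the control lung. The B16 lung stood well below the others, 3.74-fold lower than control (−1.90) and 2.96-fold lower than the LLC lung (−1.57), while the LLC lung was 1.26-fold lower than control (−0.34). Among the 1802 probe sets with a mean signal of 100 to 200, 3.44% were at least 2-fold lower in the B16 lung than in control. With the floor raised to a signal of 100 the B16 difference from control was −0.87, no longer past 2-fold, since the reading there lies under that floor. A single probe set stands behind these values.

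The sequences upstream of Sema3e and Pdpn are shown because these were the members with the lowest readings in the B16 lung relative to control. Each is the 250 bases before the RefSeq gene start on the gene's own strand in build GRCm38.p6, chr5:14025026-14025275 on the plus strand for Sema3e and chr4:143299565-143299814 on the minus strand for Pdpn; capitals mark the letters GGGCGG, the GC box, on either strand.
Sema3e: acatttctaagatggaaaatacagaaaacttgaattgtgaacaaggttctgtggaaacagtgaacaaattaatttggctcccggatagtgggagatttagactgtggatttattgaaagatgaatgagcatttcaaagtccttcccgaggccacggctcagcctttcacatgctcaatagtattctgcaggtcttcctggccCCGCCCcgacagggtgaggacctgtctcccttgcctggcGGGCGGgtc
Pdpn: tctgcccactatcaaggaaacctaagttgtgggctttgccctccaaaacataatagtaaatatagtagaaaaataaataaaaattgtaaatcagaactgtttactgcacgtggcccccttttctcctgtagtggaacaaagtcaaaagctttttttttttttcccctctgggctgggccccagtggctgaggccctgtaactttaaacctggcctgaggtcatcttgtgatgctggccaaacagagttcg
The Sema3e window holds 2 GC boxes, whose first bases lie 48 and 9 bases before the gene start, and the Pdpn window holds 0. Of 32851 promoter windows of this length, 32.7% hold 1 or more. The letters GGAATG, the core bound by TEAD factors, and CAAGTG, a form of the NKX2-1 site, were searched on both strands too and were in neither window; 12.6% and 11.6% of all windows hold them. No searched motif overlapped another here, and a match or its lack describes only the letters in these windows.

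Plxnd1, the receptor of Sema3e, had its lowest reading in the same lung. Its signal was 37.2 in the B16 lung and 77.6 in the LLC lung, against 98.5 in the control lung, differences of −1.40 and −0.34. Sema3c, a related ligand, read 59.2 and 87.6 against 133, so it too was at least 2-fold lower in the B16 lung (−1.17). Sema3a and Sema3f were below the floor in both tumour-bearing lungs, against control signals of 32.5 and 45.6, so they could only come out lower. In all, 2 of 7 measured genes of this list, Sema3c and Plxnd1, were at least 2-fold lower in the B16 lung, against 4.73% of all measured genes and 8.12% of probe sets with a mean signal of 50 to 100, where both lie. In the LLC lung 0 were, against 2.98%.

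Nrp1, the neuropilin shared by semaphorins and VEGF, read 1275 and 1414 against 1442 on its brighter probe set and 332 and 597 against 595 on the other, so it was lowest in the B16 lung on both. The measured plexins of class A did not share that order. Plxna3 was 2.08-fold higher in the LLC lung, with 319 in the B16 lung and 583 in the LLC lung against 280, and Plxna2 read 115 and 79.7 against 71.7. The list's medians were −0.46 and −0.34 against control. Both include Sema3a and Sema3f, which were measured through the control lung alone, and the B16 median is itself the floor bound of Sema3a. With a floor of 100, which leaves 4 measured genes, the B16 median was 0.005.

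**Figure D3:**
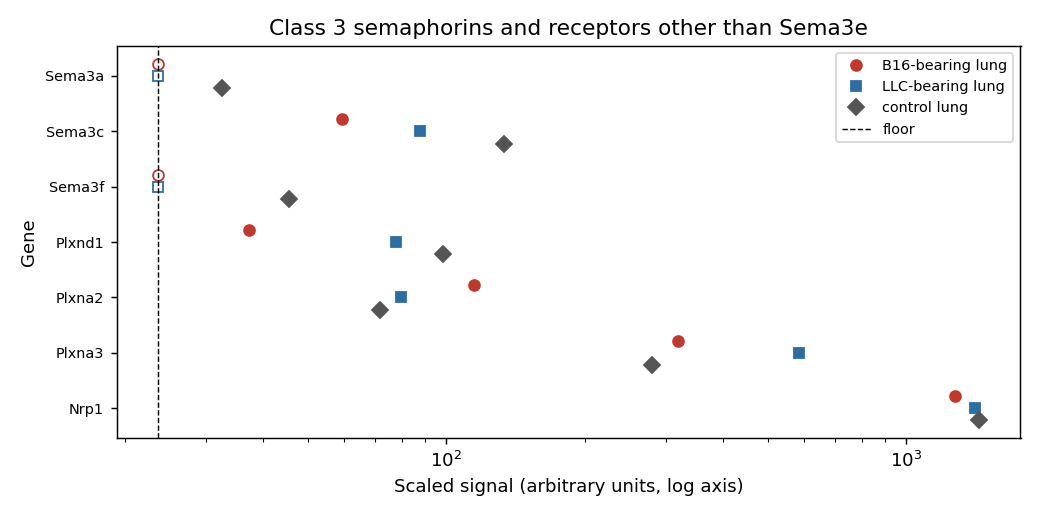
Scaled signal (arbitrary units, log axis) of class 3 semaphorins and their receptors, 1 point per array; open symbols at the dashed line are readings at or below the floor. Sema3c and Plxnd1 run from lowest in the B16 lung (59.2 and 37.2) to highest in the control lung (133 and 98.5), and Plxna3 is highest in the LLC lung (583).

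Igfbp2 encodes a secreted carrier of insulin-like growth factors, known in mouse lung from mature type 1 cells and made in quantity by liver. Its signal was 553 in the B16 lung and 530 in the LLC lung, against 544 in the control lung. The 3 lungs were level, with differences of 0.02 and −0.04. The hepatocyte list was high in the LLC lung. There, 10 of 10 measured genes were at least 2-fold higher than in control, against 3.95% of all measured genes. The summed signals were 217 in the B16 lung, 4931 in the LLC lung and 177 in the control lung. Only 4 of the 10 exceeded the floor in the B16 or control lung. Most of the 10 were below the floor in the control lung. Against control these could only come out higher in the LLC lung, and their folds are lower bounds. A further 2 of the 12 genes with a probe set were below the floor on all 3 arrays. Igfbp2 was not higher in the LLC lung. The liver-made Igfbp1 was below the floor in both the LLC and control lungs and read 29.7 in the B16 lung. The part of liver RNA in the Igfbp2 reading was not tested.

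Other carriers did differ. Igfbp7, a matrix-bound relative made by vessels, read 358 in the B16 lung and 104 in the LLC lung against 344, which is 3.32-fold lower in the LLC lung. Igfbp6, which prefers IGF2, read 1026 and 551 against 709, and Igfbp3 and Igfbp4 stayed within 2-fold on their brightest probe sets. Another Igfbp4 probe set read 171 in the B16 lung and 53.9 in the LLC lung against 117, more than 2-fold lower in the LLC lung than in control. Igf1, the growth factor, read 183 and 195 against 256, and its receptor Igf1r 314 and 179 against 200. Of the list's measured genes 0 of 8 were past 2-fold in the B16 lung, against 3.23% of all measured genes higher and 4.73% lower. In the LLC lung 1 of 7, Igfbp7, was at least 2-fold lower by the brightest probe set, against 2.98%.

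Hopx encodes a small homeodomain protein that does not itself bind DNA and modulates transcription through partners such as SRF and histone deacetylases. Its signal was 2735 in the B16 lung and 2552 in the LLC lung, against 2415 in the control lung. Both tumour-bearing lungs were slightly above control, by 0.18 and 0.08. Both lay within the robust SD of 0.218 for the B16 lung and 0.153 for the LLC lung at this brightness. The medians of probe sets of this brightness were 0.11 and 0.10, so Hopx lay close to them. Cardiac muscle genes ran the other way. Each of the 9 measured cardiac genes read below control in the B16 lung and in the LLC lung. Tnnc1, Mb and Ckmt2 exceeded the floor in the control lung alone, so they could only come out lower. Among all measured genes, 3024 of 5968 were lower than control in the B16 lung and 3008 of 6000 in the LLC lung. The summed signal of the cardiac list was 1153 and 979 against 2298. Myl7, the atrial light chain, read 288 and 187 against 611.

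Of 10 listed regulators of alveolar epithelium 8 had a probe set. Gata6, a lung and heart factor, read 245 and 238 against 245, and Yap1 525 and 459 against 475, so both were level. Wwtr1, which encodes TAZ, read 435 and 399 against 328 on its brighter probe set but 215 and 288 against 285 on the other. Foxa2, a lung epithelial factor, was below the floor in both tumour-bearing lungs, against 112 in the control lung, and so at least 4.74-fold lower in both. Klf5, an epithelial zinc finger factor, read 39.98 and 77.1 against 99.3, which is 2.48-fold lower in the B16 lung. Foxa1, a relative of Foxa2, read 140 and 155 against 189, and Hdac2, a histone deacetylase that partners Hopx, 110 and 124 against 163. Against control 5 of 8 were lower in the B16 lung (median −0.36) and 7 of 8 in the LLC lung (median −0.27). At least 2-fold lower were 2 of 8 in the B16 lung, Foxa2 and Klf5, against 4.73% of all measured genes. In the LLC lung 1 of 8 was, Foxa2, against 2.98%, and 0 were 2-fold higher in either lung. Among probe sets with a mean signal of 50 to 100, where Klf5 lies, 8.12% were lower in the B16 lung. From 0 to 50, where Foxa2 lies, 7.42% were lower in the B16 lung and 4.79% in the LLC lung. Foxa2 was measured through the control lung alone, so it could only come out lower.

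Further type 1 markers gave the same picture of small differences. Of 25 listed genes, 16 had a probe set with that single symbol and 14 were above the floor; the water channel gene Aqp5 had no such probe set. Against control 7 were higher and 7 lower in the B16 lung (median 0.04), and 3 were higher and 11 lower in the LLC lung (median −0.155). On floored values of the brightest probe sets none was past 2-fold in any of the 3 comparisons. Col4a4, a collagen chain, was below the floor in the LLC lung, so its folds there are only bounds. The background between the B16 and LLC lungs was 4.95% of genes lower and 3.41% higher. Lmo7, a junction protein, read 2147 and 1793 against 1900, and Vegfa, the endothelial growth factor that type 1 cells supply to capillaries, 663 and 704 against 730.

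The farthest from control in this set were Clic3, a chloride channel protein, with 265 and 284 against 433, and Agrn, the matrix proteoglycan agrin, with 329 and 267 against 432. Their differences were −0.71 and −0.61 for Clic3 and −0.39 and −0.69 for Agrn. The second Agrn probe set did not share them, with 187 and 215 against 198. Spock2, a proteoglycan, was 1.43-fold higher in the B16 lung on its brighter probe set, with 834 and 622 against 583. Its other probe set ran the other way, with 23.9, just above the floor, and 43.6 against 73.0. Ccn1, a matricellular target of YAP, read 99.2 and 49.9 against 77.0, so the B16 lung was 1.99-fold above the LLC lung.

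**Figure D4:**
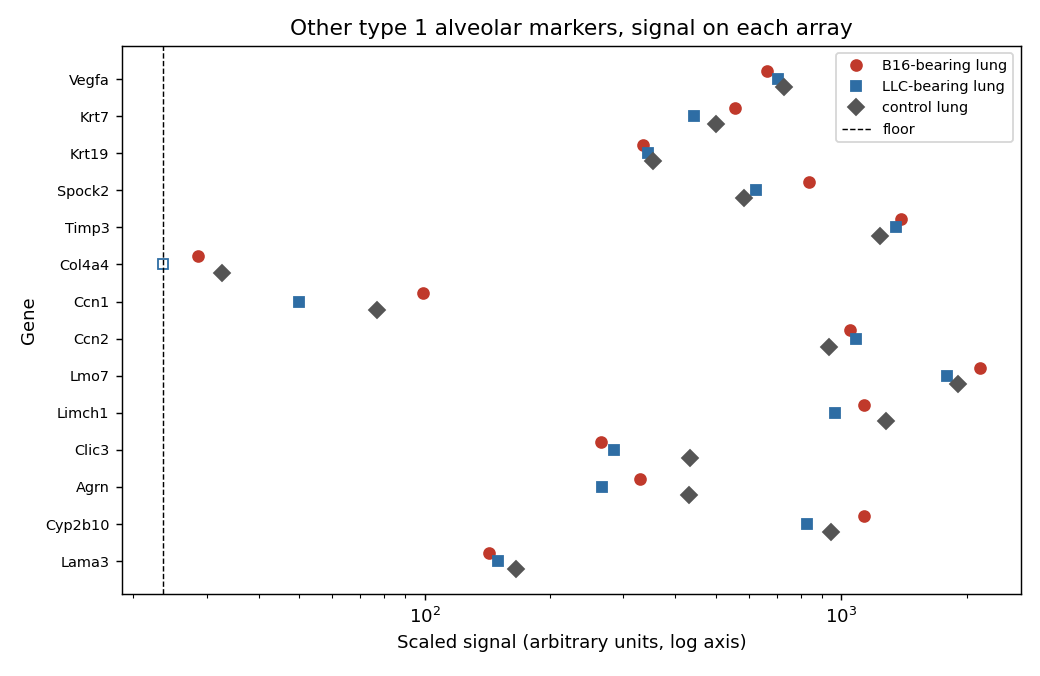
Scaled signal (arbitrary units, log axis) of 14 other type 1 alveolar markers, 1 point per array; the open symbol at the dashed line is a reading below the floor. The points of each gene, from its brightest probe set and as floored, lie within 2-fold, with the widest gap between the B16 and LLC lungs in Ccn1 (99.2 and 49.9).

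Cell types that share genes or space with type 1 cells were read in the same way, against the background of 3.23% of genes at least 2-fold higher and 4.73% lower in the B16 lung and 3.95% and 2.98% in the LLC lung. Type 2 alveolar genes had medians of 0.02 and 0.04 against control over 10 measured genes, with 0 past 2-fold; Sftpc, the surfactant protein C gene, read 7482 and 7298 against 6206. The summed signal of that list was 18653 and 19057 against 17551. Airway genes had medians of 0.07 and 0.04, with Cbr2, a carbonyl reductase, the 1 of 5 past 2-fold (70.0 and 52.5 against 782). Endothelial genes, which share Cav1, had medians of −0.05 and 0.05 over 13 genes, with sums of 9626 and 8922 against 8638. Cdh5, the cadherin of endothelial junctions, read 1338 and 1517 against 1407; Vwf, named after its values were seen, was the 1 past 2-fold, with 732 in the B16 lung and 537 in the LLC lung against 354.

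Summed over the 7 type 1 genes, the signal was 9477 in the B16 lung and 8411 in the LLC lung, against 8678 in the control lung, and bright genes dominate that sum. Fibroblast genes had medians of 0.08 and 0.09, with 0 of 8 past 2-fold. The mesothelial list had medians of 0.275 and −0.09, and the cardiac list of −1.22 and −1.67. The cardiac medians include genes measured through the control lung alone, which could only come out lower. The part of these lists in any type 1 reading was not tested.

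**Figure D5:**
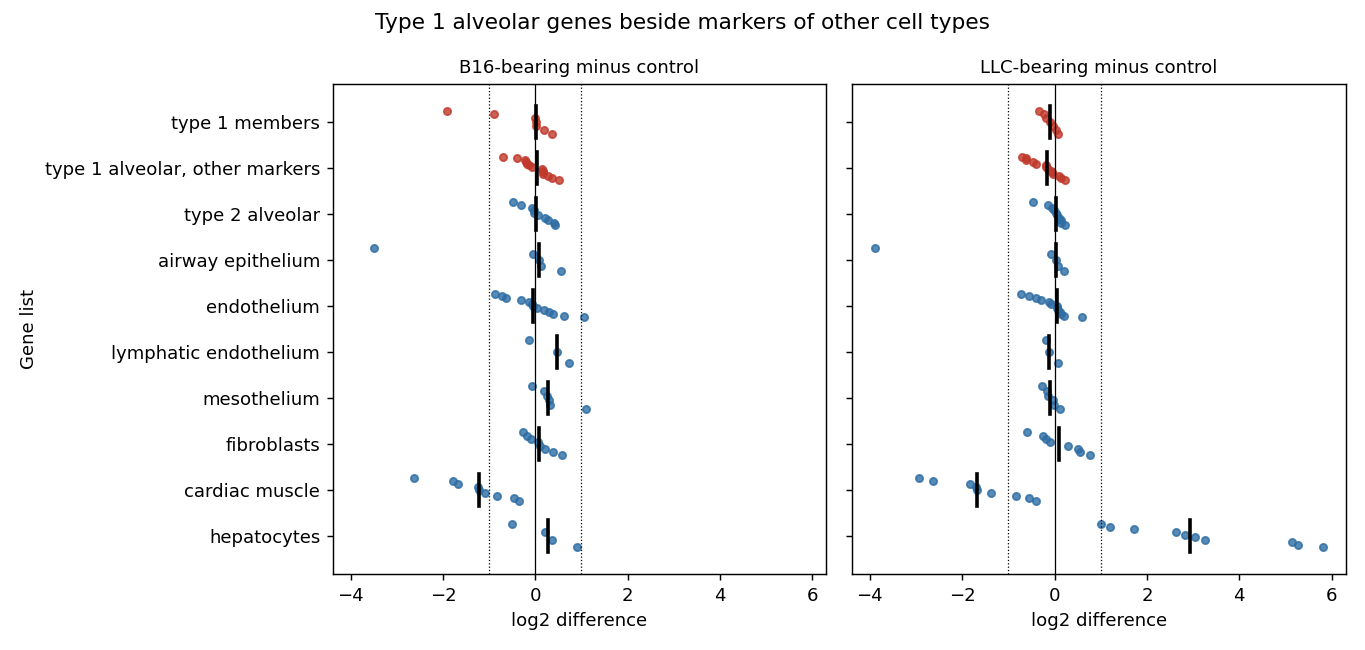
Log2 difference from the control lung of each measured gene (points) in the type 1 genes (red) and in markers of other cell types (blue), with the median of each list as a black bar and dotted lines at 2-fold. Both type 1 lists centre near 0, and the cardiac list (medians −1.22 and −1.67) and, in the LLC lung, the hepatocyte list (2.93) lie apart. The cardiac and hepatocyte lists hold values that are only bounds set by the floor.

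Likeness of pattern was read as the Euclidean distance in the 2 differences from control, among 2782 other genes with all 3 signals at 100 or more; 3 arrays give only 2 such differences, so it separates little. Within a distance of 0.1 lay 200 genes for Hopx, 205 for Cav1, 200 for Igfbp2, 91 for Emp2, 46 for Ager and 6 for Pdpn. The nearest to Pdpn were Glud1 (0.05), Dnajb9 (0.07) and Serp1 (0.09). The nearest to Ager were Wnt10b, Flii and Tfap2a, at distances of 0.01 to 0.03. Sema3e was not compared, because its B16 signal was under 100.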

How the data were processed

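Total RNA from 3 lungs was measured on Affymetrix arrays, 1 per group; groups came from sample titles and, for the control, the source name. Per the labels' protocols, TRIzol RNA was made into biotin-labelled cRNA. Each deposited value is a linear-scale intensity of 1 probe set. Of the values per array, 20.2% to 21.0% lay below 0, so some signal had been subtracted, by a step that was not given. The array software and the summarisation of probes were not given in the sources used here. Arrays carry no read depth, and their number limits the precision.

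Of 12488 probe sets 66 controls were set aside. The platform annotation gives 1 symbol for 10833 of 12422, several for 396 and none for 1193; all 7 genes were found by gene ID in RefSeq (GRCm38.p6). Each array was scaled by 1 factor (0.987, 1.01 and 1.0) that set the median log2 ratio to control to 0 over the brighter probe sets. Signals under the floor (23.6) were set to it. The brightest probe set stood for a gene, which was measured if at least 1 of the 2 arrays exceeded the floor. Folds against a floored signal are lower bounds. No test was possible with 1 array per group. Python 3.11.15, pandas 2.3.3 and numpy 2.4.6 were used, and the steps were tested on simulated data.

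The genes and the 16 lists (174 entries) were chosen with earlier results of these data known. All 7 genes were named; genes of the partner and type 1 lists could be named if above the floor, and of each cell type list the 4 brightest. The 6 alternatives changed the floor, the scaling or the choice of probe sets.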

Additional observations from a re-analysis of the deposited data

Results flagged for a closer look

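Ager and Igfbp2 stood on opposite sides of the control lung in the tumour-bearing lungs. Ager differed from control by 0.37 in the B16 lung and −0.10 in the LLC lung. Igfbp2 differed by 0.02 and −0.04, which is far within the spread of probe sets of its brightness. With 1 array per group the differences between the lungs were not tested.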

How the results depend on the processing

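Of 126 values of the 7 genes under the 6 alternatives, 122 moved by less than 0.429, the robust SD between the tumour-bearing lungs; the other 4 were Sema3e. With the floor at the 60th percentile (71.3) its B16 difference was −1.36 from control and −1.025 from the LLC lung, and with a floor of 100 −0.87 and −0.54. With that floor the number of the 7 genes past 2-fold was 0 in the B16 lung against control and 0 against the LLC lung; the floor itself lies above the Sema3e reading. Scaling by all probe sets or leaving values as deposited moved no value of the 7 genes by that much. The Cav1 differences changed sign when its probe sets were averaged, to −0.15 and −0.11 in the B16 and LLC lungs against control. Of 288 list medians 278 moved by less; without suffixed probe sets the caveola list kept 2 genes and its median was 0.77 in the LLC lung. The cardiac medians shrank to −0.78 and −0.80 in the B16 and LLC lungs with the floor at the 60th percentile. Signals under the floor limit what dim genes such as Sema3e and Plxnd1 can show. No paired analysis was possible because each group is 1 array.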
